A study of Rattus norvegicus with 42 samples.

Results

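The acute phase plasma proteins are secreted by the liver into the blood, and 10 of their genes were taken by name: Hp, Hpx, Orm1, Lcn2, Lbp, Saa4, Crp, Apcs, A2m and Cp. Of these, 9 had coding regions in the table of pSer2 Pol2 occupancy (20 of its 60999 regions), and the same 9 had a row among the 22929 genes of the RNA-Seq count table. Saa4, a constitutive serum amyloid A, was not analysed here. GR binding was taken from the 26 of 3981 regions whose centre lay within 50 kb of the transcription start site (TSS) of a member.

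All rats were adrenalectomised male Sprague Dawley rats, so that the hormone came from the infusion. They had received dexamethasone with the analgesia after surgery and corticosterone in the drinking water during recovery, in every group. Saline without hormone then replaced it ahead of the infusion, for washout per the methods. Corticosterone (CORT) or its vehicle (VEH, HBC in saline) was infused intravenously for 3 h, either in hourly pulses of 20 min (PULS) or without interruption (CONS). The ChIP libraries formed 5 groups of 2, each library pooled from 6 rats: PEAK_140 at the peak of the third pulse (140 min), NADIR_180 before the next pulse (180 min), CONS_140, CONS_180 and VEH. The VEH group held 1 library of pulsatile vehicle at 140 min and 1 at 180 min, so that constant CORT was compared with pulsatile vehicle in both ChIP assays. The 12 RNA-Seq libraries formed 4 groups of 3 at 180 min: PULS_CORT, PULS_VEH, CONS_CORT and CONS_VEH. Depth was 2051977 to 6715803 tags in GR, 4938473 to 9326927 tags in pSer2 Pol2 and 3956379 to 7777219 reads in RNA-Seq libraries.

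In the acute phase response, cytokines such as IL-6 and IL-1 reach hepatocytes through their receptors and act through STAT3, C/EBP and NF-kB factors. Glucocorticoids act on the same genes through the glucocorticoid receptor (GR), a ligand-activated transcription factor that binds the glucocorticoid response element (GRE), and they are known to be needed for full induction of several of these proteins. Hp encodes haptoglobin, which binds free haemoglobin, and Hpx hemopexin, which binds free haem. Orm1 encodes alpha-1-acid glycoprotein, a carrier of drugs and steroids and a long-known glucocorticoid target in rat liver. Lcn2 encodes lipocalin 2, which withholds iron from bacteria by binding their siderophores, and Lbp the lipopolysaccharide-binding protein. Crp and Apcs encode the pentraxins C-reactive protein and serum amyloid P component. A2m encodes alpha-2-macroglobulin, a protease inhibitor that is a major acute phase protein of the rat, and Cp encodes ceruloplasmin, the copper-carrying ferroxidase.

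RefSeq promoters (GRCr8 assembly) matched 6 of the 10 members: Apcs, Cp, Crp, Hpx, Lcn2 and Orm1. The 250 bases before the start site are shown for the 3 members that held a GRE core and for Hpx, over which Pol2 occupancy fell at CONS_140. Capitals mark matches to the motifs searched.
Orm1: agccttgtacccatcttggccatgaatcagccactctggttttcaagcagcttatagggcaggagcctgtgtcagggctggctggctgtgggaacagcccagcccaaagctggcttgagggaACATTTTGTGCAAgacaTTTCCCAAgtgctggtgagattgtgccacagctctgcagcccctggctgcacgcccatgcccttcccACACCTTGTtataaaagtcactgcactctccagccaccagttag
Lcn2: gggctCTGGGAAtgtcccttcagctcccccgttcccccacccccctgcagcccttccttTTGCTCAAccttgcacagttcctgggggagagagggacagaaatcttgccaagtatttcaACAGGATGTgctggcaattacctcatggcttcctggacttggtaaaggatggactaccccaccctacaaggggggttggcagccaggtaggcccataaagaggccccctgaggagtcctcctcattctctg
Apcs: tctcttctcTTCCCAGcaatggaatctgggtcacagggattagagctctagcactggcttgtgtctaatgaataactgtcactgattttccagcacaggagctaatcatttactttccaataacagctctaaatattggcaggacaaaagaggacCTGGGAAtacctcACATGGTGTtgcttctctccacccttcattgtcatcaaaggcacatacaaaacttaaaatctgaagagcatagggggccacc
Hpx: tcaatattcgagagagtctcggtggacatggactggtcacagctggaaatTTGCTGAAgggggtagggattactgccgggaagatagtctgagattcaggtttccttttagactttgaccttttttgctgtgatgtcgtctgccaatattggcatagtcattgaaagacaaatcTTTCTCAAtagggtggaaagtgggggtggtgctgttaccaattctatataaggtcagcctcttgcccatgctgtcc
The Orm1 promoter lies at chr5:81788259-81788508 on the plus strand. On the minus strand lie those of Lcn2 (chr3:36081781-36082030), Apcs (chr13:87906509-87906758) and Hpx (chr1:169352156-169352405).

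Motifs were searched on both strands in the 300 bases from 250 before to 50 after the start site. The GRE core ACANNNTGT was found in 3 of 6 members, against 6.86% of 33469 promoters of that length. In Orm1 it started at -128 and -44, in Lcn2 at -131 and in Apcs at -82 from the start site. The first Orm1 match overlapped a C/EBP match TTNNGNAA that started at -123, and a second C/EBP match started at -111. C/EBP letters occurred in 5 of 6 members, all but Apcs, against 41.3% of all promoters. The type 2 IL-6 element CTGGGAA was in Apcs and Lcn2 (2 of 6, against 11.3%), and the single GRE hexamer AGAACA was in Crp (1 of 6, against 20.7%). The STAT letters TTCNNNGAA, the NF-kB letters GGANTTTCC and the HNF1 letters GTTAATNAT were in none of the 6 windows, against 8.87%, 1.28% and 0.747% of all promoters. These matches are a description of letters. The files use the rn6 build, so GR regions were not placed on these sequences.

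Elongating Pol2 was followed first. The pSer2 Pol2 value is the log2 of tags over the coding region, limited to 10 kb from the TSS, after subtraction of input, and it marks Pol2 that is transcribing the gene. Over Orm1 and Lcn2, Pol2 occupancy rose at PEAK_140, and over Hpx it fell at CONS_140. A member was called where the adjusted p of limma (Benjamini-Hochberg over 38315 regions) was below 0.05 and the change exceeded 1.5-fold. A2m was listed at 0 in every library and was not tested, which left 8 members.

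**Figure D1:**
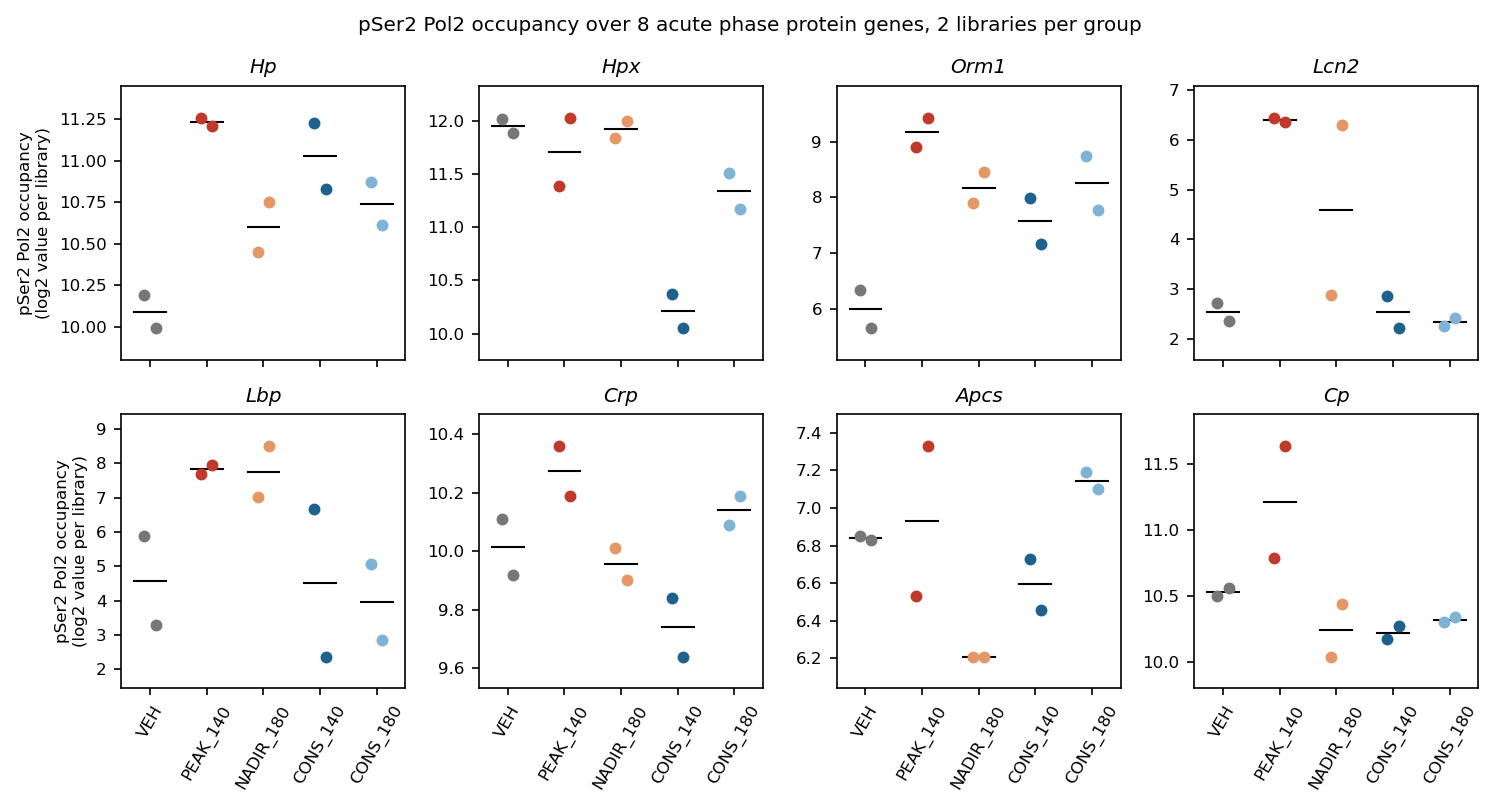
pSer2 Pol2 occupancy (log2 tags over the coding region) of each member in each ChIP library, by group, with 1 point per library and a bar at the mean of the 2 libraries. Orm1 lies above both VEH libraries in every CORT library, Lcn2 stands high at PEAK_140 and in 1 of the NADIR_180 libraries, and Hpx is lowest at CONS_140.

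Orm1 (chr5:79179417-79182820, plus strand, ENSRNOG00000007886) held 6.34 and 5.65 in the VEH libraries of 140 min and 180 min. It held 8.90 and 9.43 at PEAK_140, 7.89 and 8.46 at NADIR_180, 7.98 and 7.16 at CONS_140, and 8.74 and 7.78 at CONS_180. All 8 CORT libraries thus lay above both VEH libraries. The group means fell in the order PEAK_140 (9.17 ± 0.37, SD, n = 2), CONS_180 (8.26 ± 0.67), NADIR_180 (8.18 ± 0.40), CONS_140 (7.57 ± 0.58) and VEH (6.00 ± 0.48). The 3 groups between PEAK_140 and VEH overlapped one another. Occupancy at PEAK_140 was 9.0-fold that of VEH (log2 fold change 3.17, SE 0.45, limma adjusted p = 0.0069). The differences of NADIR_180 (2.18, adjusted p = 0.5), CONS_140 (1.57, adjusted p = 0.25) and CONS_180 (2.26, adjusted p = 0.1) from VEH, each with an SE of 0.45, did not pass.

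Lcn2 (chr3:11414186-11417546, minus strand, ENSRNOG00000013973) held 2.73 and 2.35 in VEH and 6.45 and 6.36 at PEAK_140. At NADIR_180 the libraries parted, with 2.89 in replicate 1 and 6.31 in replicate 2. Under constant infusion Lcn2 held 2.87 and 2.21 at CONS_140 and 2.25 and 2.41 at CONS_180. Both PEAK_140 libraries and 1 NADIR_180 library thus stood apart from the other 7 libraries, which lay between 2.21 and 2.89. Occupancy at PEAK_140 was 14.6-fold that of VEH (3.86, SE 0.78, limma adjusted p = 0.044). The VEH values were low, and low deposited values were shrunk towards the region's mean, so this fold is a fitted value. The difference from VEH at NADIR_180 was 2.06 (SE 0.78, adjusted p = 1.0), at CONS_140 it was 0.00 and at CONS_180 it was -0.21.

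Hpx (chr1:170423483-170431073, minus strand, ENSRNOG00000018257) held 12.02 and 11.89 in VEH, 11.39 and 12.03 at PEAK_140, and a mean of 11.92 ± 0.12 (SD) at NADIR_180. It held 10.37 and 10.05 at CONS_140 and 11.51 and 11.17 at CONS_180. The CONS_140 libraries were the lowest of all 10, and the CONS_180 libraries lay below those of VEH. Occupancy at CONS_140 fell to 0.299 of VEH (-1.74, SE 0.27, limma adjusted p = 0.012). At CONS_180 the difference from VEH was -0.62 (SE 0.27, adjusted p = 1.0), and at PEAK_140 it was -0.25.

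These were the calls among 8 members tested. At PEAK_140, 2 of 8 rose and none fell, where 0.989% of all regions were called. At CONS_140, 1 of 8 fell, where 0.788% of all regions were called. At NADIR_180 and CONS_180 limma called 0 of 8, where 0.00522% and 0.214% of all regions were called, and 3 members had an unadjusted p under 0.05 in each. The median change over the 38315 regions was -0.05 for PEAK_140, 0.01 for NADIR_180, 0.15 for CONS_140 and 0.01 for CONS_180, and over the members it was 0.92, 0.24, -0.16 and -0.04. Each of these comparisons used the same 2 VEH libraries.

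The calls rested on pairs of libraries. With only the libraries compared in the fit, no member was called at PEAK_140 or CONS_140. Without any 1 of the 4 libraries compared, the PEAK_140 change of Orm1 was 2.83 to 3.51 and that of Lcn2 3.67 to 4.06, and neither passed (limma adjusted p from 0.062 to 0.09 and from 0.31 to 0.39). The CONS_140 change of Hpx was lost without either VEH library or without CONS_140 replicate 1 (limma adjusted p from 0.099 to 0.11) and was called without CONS_140 replicate 2 (adjusted p = 0.0081).

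Hp (chr19:42097995-42100804, plus strand, ENSRNOG00000014964) had the other shape in which every CORT library exceeded VEH. It held 10.19 and 9.99 in VEH, 11.26 and 11.21 at PEAK_140, 10.45 and 10.75 at NADIR_180, 11.23 and 10.83 at CONS_140, and 10.87 and 10.61 at CONS_180. The difference at PEAK_140 was 1.15 (SE 0.26, limma adjusted p = 0.081) and at CONS_140 it was 0.94 (SE 0.26, adjusted p = 0.22), so that Hp was not called. When every library was centred on its median, Hp was called at PEAK_140, as the third member beside Orm1 and Lcn2, and Orm1 was called at CONS_180. Over all regions, 301 then rose and 482 fell at PEAK_140, in place of 140 and 239, and 191 rose and 91 fell at CONS_180, in place of 60 and 22.

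Lbp (chr3:154786215-154796215, plus strand, ENSRNOG00000014532) had the widest spread. It held 5.87 and 3.30 in VEH, 7.70 and 7.95 at PEAK_140, 7.01 and 8.51 at NADIR_180, 6.66 and 2.37 at CONS_140, and 5.08 and 2.86 at CONS_180. All 4 PULS libraries exceeded the 6 others, yet the VEH libraries were 2.57 apart and the difference at PEAK_140 was 3.25 (SE 1.24, limma adjusted p = 0.67). Cp (chr2:104744461-104754461, plus strand, ENSRNOG00000011913) held 10.04 to 10.56 in all but the PEAK_140 libraries, which held 10.79 and 11.64. Its difference from VEH at PEAK_140 was 0.69 (SE 0.31, adjusted p = 0.95).

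Of the pentraxins, Crp was read over its transcript ENSRNOT00000000058 (chr13:91080341-91081629, plus strand), since the deposited gene-wide region, 10 kb from an upstream start, held values near -1 in every library. Crp varied least, from 9.64 to 10.36 over the 10 libraries, and its difference at PEAK_140 was 0.26 (SE 0.25). Apcs (chr13:91426479-91427575, minus strand, ENSRNOG00000009086) held 6.85 and 6.83 in VEH, 6.53 and 7.33 at PEAK_140, 6.21 in both NADIR_180 libraries, 6.73 and 6.46 at CONS_140, and 7.19 and 7.10 at CONS_180. Its NADIR_180 libraries were the lowest, with a difference from VEH of -0.63 (SE 0.35, limma adjusted p = 1.0).

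Change with time was then compared between the patterns. Between PEAK_140 and NADIR_180, limma called 0 of 8 members, where 0.48% of all regions were called, and 4 had an unadjusted p under 0.05. The greatest differences were those of Lcn2 (1.80, SE 0.78, adjusted p = 0.86), Orm1 (0.99, SE 0.45, adjusted p = 0.91) and Cp (0.98, SE 0.31, adjusted p = 0.41). The Lcn2 difference was 3.51 without NADIR_180 replicate 2, which left replicate 1 (2.89) alone in that group. Replicate 2 (6.31) was itself close to the PEAK_140 libraries (6.45 and 6.36), so the difference rested on replicate 1. Between CONS_140 and CONS_180, 0 of 8 members and 0 of 38315 regions (0%) were called, while 1134 regions had an unadjusted p under 0.05. The member among them was Hpx, which was lower at 140 min (-1.12, SE 0.27, unadjusted p = 0.0016, adjusted p = 0.63). For the difference between the PULS and the CONS change with time, 0 of 8 members were called, where 0.0574% of all regions were. There 4 members had an unadjusted p under 0.05, namely Orm1 (1.68), Apcs (1.27), Cp (1.08) and Hpx (0.91), each with a limma adjusted p of 0.6.

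GR binding near these genes was read next. Within 50 kb of a TSS lay 7 regions of Hp, 5 of Crp, 5 of Lcn2, 3 of Apcs, 2 of Cp, 2 of Orm1, 1 of Hpx and 1 of Lbp. The nearest region of A2m, at 98426 b, was outside the window. Of the 5 regions assigned to Lcn2 by distance, 4 lay in the neighbouring gene Slc25a25 or at its promoter, and the fifth lay at the promoter of Ptges2. GR values are log2 tags per region after subtraction of input, and values below 0 mark regions with few tags. A fold change from a VEH value below 0 is a fitted value and no bound.

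On the scale of the deposited values, most of these regions gained GR signal at the pulse peak, beside a like share of all GR regions. All GR regions were merged from the authors' peaks of the groups. Nearly all of those near members had a peak at PEAK_140 and no VEH peak. A rise from VEH to PEAK_140 was thus largely set by the choice of regions. At PEAK_140, 22 of 26 regions rose and 1 fell, where 80.5% of all regions were called. At NADIR_180, 2 of 26 rose, where 7.79% of all regions were called. At CONS_140, 13 of 26 rose (65.1% of all regions called) and at CONS_180, 17 of 26 rose (68.2% of all regions called). Some regions called at CONS_140 or CONS_180, and those called at NADIR_180, had no peak of that group in the authors' lists. The median log2 fold changes were 4.49, 0.97, 2.91 and 3.35 beside 4.17, 0.84, 3.38 and 3.46 over all regions. These directions belong to the scale of the deposited values. When each library was centred on the median of its regions, the medians over all regions moved to -0.45, -0.34, -0.73 and -0.60. On that scale 1 of the 26 rose at PEAK_140, that in Orm1 exon 1, 11 of the 22 that had risen changed sign, and 103 of all regions rose while 431 fell, in place of 3131 and 73. Whichever of the libraries compared was left out, 14 of the 23 calls at PEAK_140, 2 of 2 at NADIR_180, where 3 to 5 of the 26 were then called (5 without NADIR_180 replicate 2), 8 of 13 at CONS_140 and 9 of 17 at CONS_180 were kept.

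**Figure D2:**
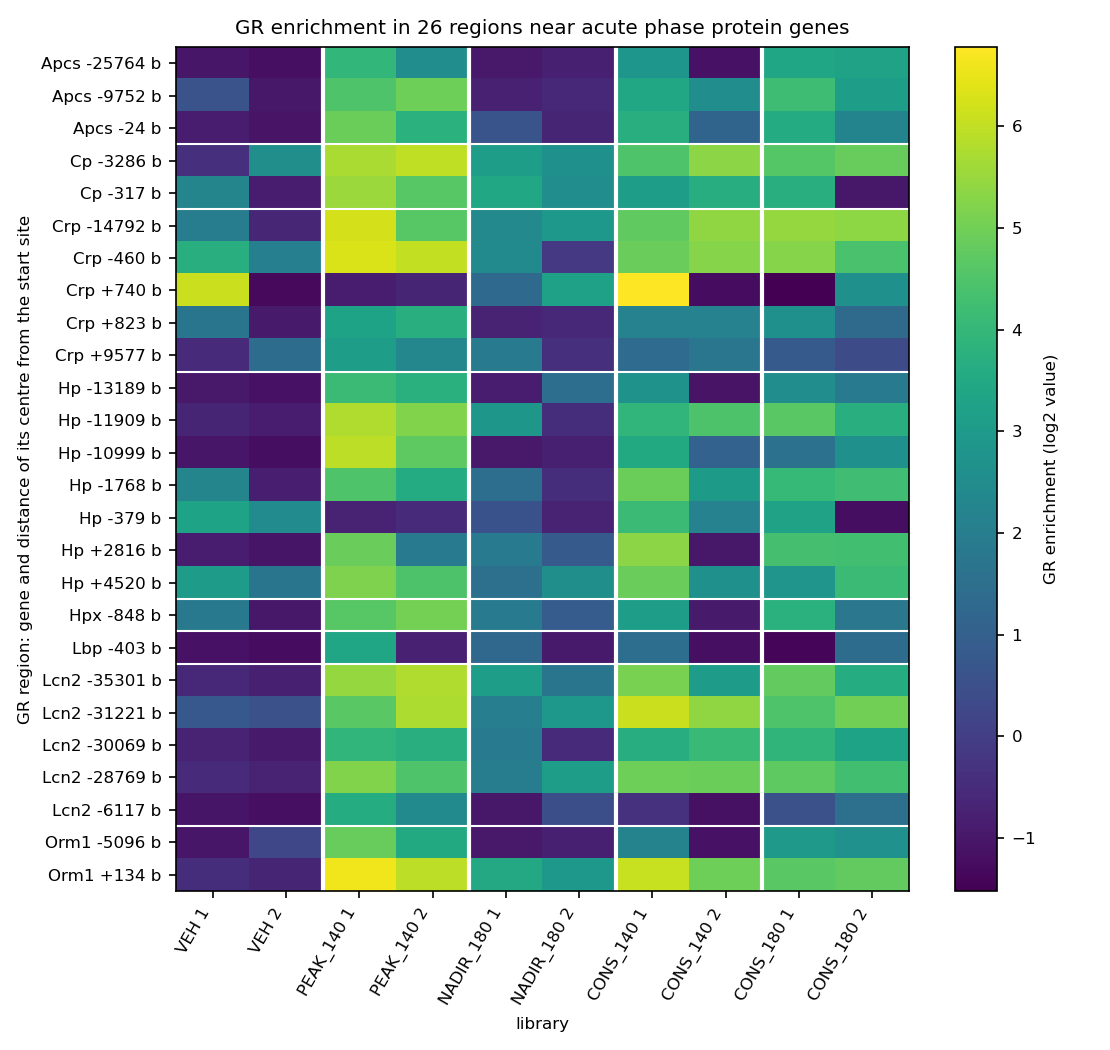
Colour map of GR signal (log2 value) in the 26 regions within 50 kb of a TSS of a member, in each of the 10 GR libraries, VEH included. Regions are named by gene and distance from the nearest TSS of that gene in b. The map does not mark calls. By the test against VEH, 22 regions rose at PEAK_140, and those of Orm1 at 134 b and Lcn2 at -28769 b rose at NADIR_180. After median centring, which the map does not show, 11 of those 22 changed sign.

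The region in exon 1 of Orm1 (chr5:79179238-79179865, centred 134 b from the TSS) had more signal in every CORT library than in VEH, and the authors' peak list of NADIR_180 had no peak there. It held -0.45 and -0.65 in VEH, 6.61 and 5.94 at PEAK_140, 3.48 and 2.91 at NADIR_180, 6.08 and 4.95 at CONS_140, and 4.67 and 4.79 at CONS_180. The NADIR_180 libraries lay between those of VEH and those of the other groups, with no overlap. Its change from VEH was 6.82 at PEAK_140 (SE 0.55, limma adjusted p = 2.5e-05), 3.74 at NADIR_180 (adjusted p = 0.0048), 6.06 at CONS_140 (adjusted p = 5.2e-05) and 5.28 at CONS_180 (adjusted p = 0.00012). Each of these calls was kept without any 1 library, but with only the libraries compared in the fit 0 of the 26 regions were called at NADIR_180. On the centred scale the PEAK_140 change was 2.20 (adjusted p = 0.031) and the NADIR_180 change was 2.56 (adjusted p = 0.087). Signal was 3.08 higher at PEAK_140 than at NADIR_180 (SE 0.55, adjusted p = 0.0018), a difference that turned to -0.36 with centred libraries.

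The other Orm1 region, at -5096 b (chr5:79174123-79174518, intergenic), was high at PEAK_140 (4.85 and 3.52) and low at NADIR_180 (-0.95 and -0.79). It held -1.01 and 0.26 in VEH, 2.18 and -1.13 at CONS_140, and 2.95 and 2.68 at CONS_180. NADIR_180 overlapped VEH, and the CONS_140 libraries lay on both sides of it. Signal rose at PEAK_140 (4.56, SE 1.09, limma adjusted p = 0.0045) and at CONS_180 (3.20, SE 1.09, adjusted p = 0.028), and both changes turned below 0 with centred libraries (-0.05 and -0.87). The CONS_180 call was lost without any 1 of its 4 libraries (2.56 to 3.83). At CONS_140 the difference was 0.90 (adjusted p = 0.47).

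Near Lcn2, the region at -28769 b (chr3:11445994-11446637, intron 5 of Slc25a25) held -0.54 and -0.73 in VEH, 5.20 and 4.49 at PEAK_140, 2.01 and 3.13 at NADIR_180, 4.96 and 4.9 at CONS_140, and 4.71 and 4.26 at CONS_180. As in Orm1 exon 1, the NADIR_180 libraries lay between those of VEH and the rest. It rose at NADIR_180 (3.21, SE 0.59, limma adjusted p = 0.011), and with centred libraries that difference was 2.03 (adjusted p = 0.38). This call too was absent with only the libraries compared in the fit. The region nearest to Lcn2, at -6117 b (chr3:11423466-11423861, promoter of Ptges2), was high at PEAK_140 alone, with 3.61 and 2.41 there and at most 1.56 in every other library. It rose at PEAK_140 (4.13, SE 0.86, adjusted p = 0.0023) and at CONS_180 (2.17, SE 0.86, adjusted p = 0.049), which turned to -0.49 and -1.90 with centred libraries. The CONS_180 call was lost without any 1 of its 4 libraries (1.65 to 2.68). The remaining 3 regions in or at Slc25a25 rose at PEAK_140, CONS_140 and CONS_180 and were not called at NADIR_180, and 1 of their 9 changes, that of the region at -31221 b at PEAK_140, turned below 0 (-0.07) with centred libraries.

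Hp had the most regions, and they did not move alike. The 3 regions between -13189 and -10999 b, all intergenic, held values below 0 in VEH and between 3.75 and 5.94 at PEAK_140. The region at -10999 b (chr19:42086798-42087193) had 5.94 and 4.72 at PEAK_140 beside -0.96 and -0.80 at NADIR_180, and rose at PEAK_140 by 6.44 (SE 0.91, limma adjusted p = 0.00032). The promoter region at -379 b (chr19:42097332-42097899) ran the other way. The authors' peaks that admitted this region were those of VEH and CONS_140, with no peak at PEAK_140 or NADIR_180. Its lower values under PULS were thus largely set by the choice of regions. It held 3.29 and 2.49 in VEH, -0.73 and -0.52 at PEAK_140, 0.57 and -0.72 at NADIR_180, 4.14 and 2.15 at CONS_140, and 3.25 and -1.22 at CONS_180. Both PULS groups lay below VEH, and the CONS libraries lay on both sides of it. It fell at PEAK_140 (-3.51, SE 1.37, adjusted p = 0.039), a call lost without any 1 of the 4 libraries and kept with centred libraries (-8.13, adjusted p = 0.0016). The other 3 regions of Hp, at -1768, 2816 and 4520 b, rose at PEAK_140 (3.32, 4.34 and 2.46) and turned below 0 with centred libraries (-1.30, -0.28 and -2.16).

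The promoter of Apcs, at -24 b (chr13:91427284-91427914), held -0.90 and -1.08 in VEH and 4.91 and 3.78 at PEAK_140, with 0.62 and -0.67 at NADIR_180. Constant infusion gave 3.70 and 1.14 at CONS_140 and 3.58 and 2.24 at CONS_180. It rose at PEAK_140 (5.34, SE 0.99, limma adjusted p = 0.0012), CONS_140 (3.40, adjusted p = 0.014) and CONS_180 (3.90, adjusted p = 0.0079). The CONS changes turned to -0.71 and -0.17 with centred libraries. The CONS_140 call was lost without either VEH library or CONS_140 replicate 1 (2.13 to 3.49), and the CONS_180 call without CONS_180 replicate 1 (3.23). The promoter of Hpx, at -848 b (chr1:170431609-170432234), held 1.82 and -0.98 in VEH, 4.63 and 5.06 at PEAK_140 and 3.14 and -0.92 at CONS_140, where Pol2 over Hpx had fallen. It rose at PEAK_140 (4.42, SE 1.41, adjusted p = 0.018), a call lost without VEH replicate 2 or either PEAK_140 library (3.02 to 4.64) and a change that was -0.19 with centred libraries. Its difference at CONS_140 was 0.68 (SE 1.41, adjusted p = 0.68).

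For Crp, distances were counted from the nearest annotated start. Those of -14792 and 823 b are from the upstream start (chr13:91054974), that of the gene-wide Pol2 region set aside above. Those of -460, 740 and 9577 b are from the start of the transcript read (chr13:91080341). At PEAK_140, 3 of 5 regions rose, at -14792, -460 and 823 b (4.77, 3.30 and 3.09), of which the last 2 turned to -1.32 and -1.53 with centred libraries. Without VEH replicate 2 those at -460 b (2.49) and 823 b (1.78) were no longer called. The region in exon 2, at 740 b, could not be read, since its replicates were at 6.13 and -1.30 in VEH and at 6.78 and -1.24 at CONS_140. The region at 9577 b did not pass at PEAK_140 (2.27, SE 0.97, limma adjusted p = 0.056). The promoter region of Lbp, at -403 b, held 3.40 and -0.76 at PEAK_140 and was not called there (2.49, SE 1.61, adjusted p = 0.18). Of Cp, both regions rose at PEAK_140, that at -3286 b by 4.77 (SE 0.87, adjusted p = 0.0011) and that at the promoter, at -317 b, by 4.38 (SE 1.47, adjusted p = 0.022). With centred libraries these were 0.16 and -0.24, and the promoter call was lost without VEH replicate 2 or either PEAK_140 library (2.83 to 4.83).

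Between PEAK_140 and NADIR_180, 19 of 26 regions were higher at the peak, where 69.3% of all regions were called. The choice of regions by peaks, which nearly all had at PEAK_140 and not at NADIR_180, bears on this and on the change with time. The median difference was 3.17, beside 3.20 over all regions. With centred libraries none was called and 9 of the 19 changed sign. Between CONS_140 and CONS_180, limma called 0 of 26 regions and 0 of 3981 (0%), with 0 of 26 and 194 of 3981 at an unadjusted p under 0.05. The PULS change with time exceeded the CONS change with time in 12 of 26 regions, where 44% of all regions were called, and with centred libraries in none, where 2 of the 12 changed sign. Of these 12 calls, 3 were kept whichever library was left out, namely those at Apcs -9752 b (6.05), Hp -10999 b (6.01) and Orm1 -5096 b (7.35).

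RNA levels at 180 min were compared last, as reads scaled to the library (CPM) with edgeR's quasi-likelihood test over 14092 genes, with the same limits for a call. In liver tissue, fewer cells of a type and less RNA per cell cannot be told apart. A2m had 0 to 2 reads per library and 8 reads in all (3 in CONS_CORT, 1 in CONS_VEH, 2 in PULS_CORT and 2 in PULS_VEH), so it was not tested. This left 8 members.

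One library set most of what was seen. In CONS_VEH replicate 2, all 8 tested members stood higher than in any of the other 11 libraries, while 10.5% of the 14092 genes tested were highest there. Of 21 other positive acute phase genes 13 (61.9%) were highest in it, and of 14 negative acute phase genes, those that the response lowers, 4 (28.6%). The kininogen gene Kng1 had 55360 reads in it and 7038 to 16526 elsewhere. CONS_VEH replicate 2 also held the highest sums of the 12 libraries of Kupffer cell and macrophage (467 CPM), lymphocyte (72.8 CPM) and cholangiocyte (17.6 CPM) markers. The nearest were 440 CPM (PULS_CORT replicate 1), 71.5 CPM (PULS_VEH replicate 2) and 14.9 CPM (PULS_CORT replicate 2). It held the lowest sum of hepatocyte markers (146000 CPM), close to 148000 CPM in CONS_VEH replicate 1. Its neutrophil, endothelium, stellate cell and red cell sums lay within the range of the other libraries. The part of these markers in the RNA differences was not tested. The edgeR differences of members printed below that use this library are given with and without it.

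**Figure D3:**
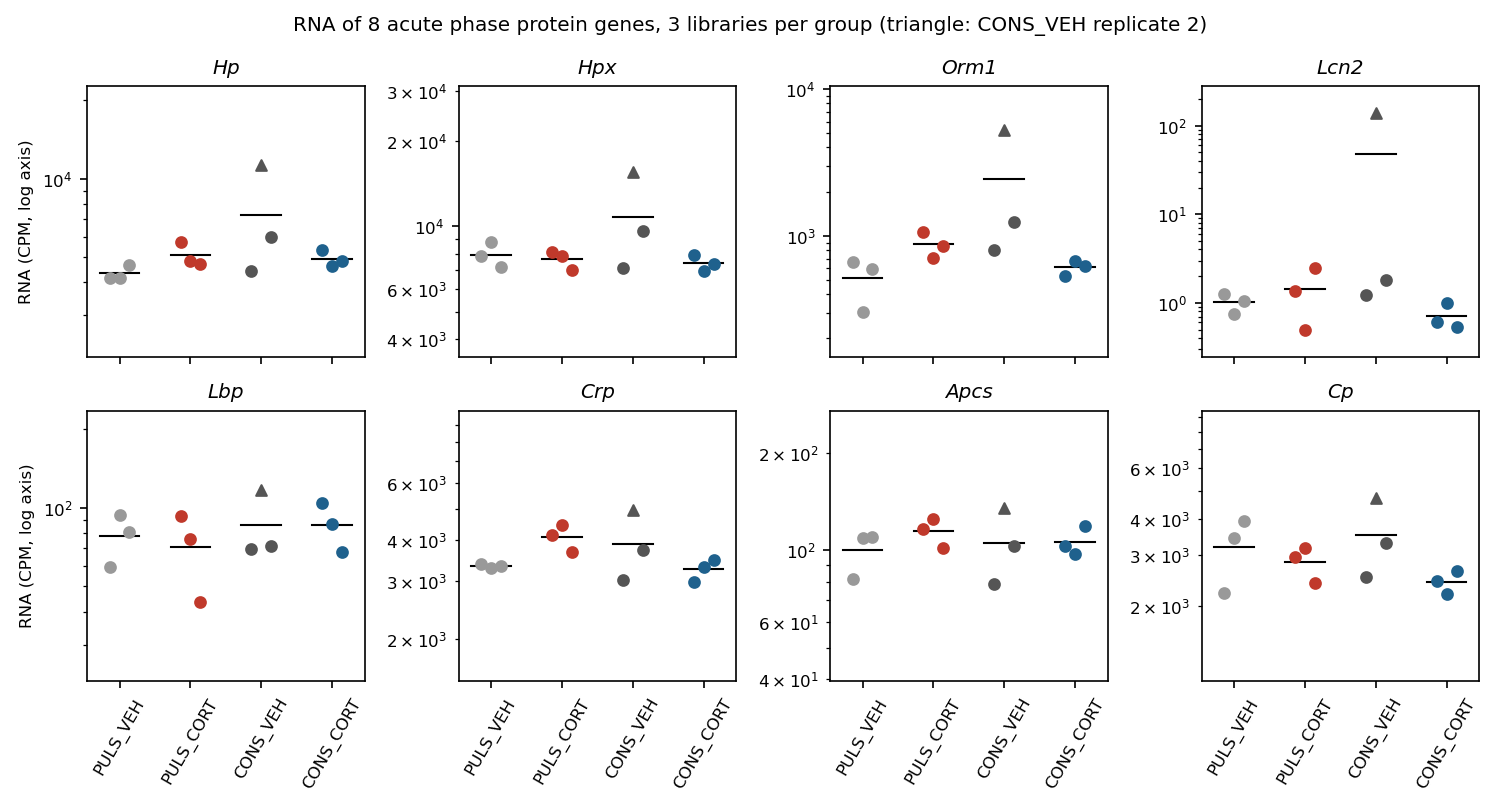
RNA level of each tested member (CPM, log scale) in each of the 12 RNA-Seq libraries at 180 min, by group, with 1 point per library and a bar at the mean of 3. CONS_VEH replicate 2 is the highest library for all 8 members, with 5230 CPM of Orm1 and 139 CPM of Lcn2.

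Orm1 stood at 662, 301 and 597 CPM in PULS_VEH and 1070, 709 and 854 CPM in PULS_CORT. It stood at 800, 5230 and 1240 CPM in CONS_VEH and 534, 673 and 623 CPM in CONS_CORT. Every PULS_CORT library exceeded every PULS_VEH library, and every CONS_CORT library was below every CONS_VEH library, also without replicate 2. The PULS difference did not pass (0.76, SE 0.47, edgeR adjusted p = 0.41). Under CONS, Orm1 fell to 0.252 of vehicle (-1.99, SE 0.49, edgeR adjusted p = 0.013), and without CONS_VEH replicate 2 the difference was -0.74 (SE 0.26, adjusted p = 0.092), no longer called. The call was also lost without CONS_CORT replicate 1 (adjusted p = 0.056).

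Lcn2 was barely read outside that library. Its reads were 7, 4 and 5 in PULS_VEH, 7, 2 and 10 in PULS_CORT, 10, 630 and 10 in CONS_VEH, and 3, 7 and 3 in CONS_CORT. Of 698 reads in all, 630 thus came from CONS_VEH replicate 2. Under CONS it fell (-5.90, SE 1.49, edgeR adjusted p = 0.014), and without that library the difference was -0.99 (SE 0.56, adjusted p = 0.32). Without CONS_CORT replicate 1 or 3 the call was lost as well (adjusted p = 0.055 and 0.061), and DESeq2 gave Lcn2 no adjusted p. The PULS difference was 0.48 (SE 2.44).

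The plasma scavengers Hp and Hpx stayed within narrow ranges elsewhere. Hp stood at 4160, 4170 and 4670 CPM in PULS_VEH, 5700, 4840 and 4710 CPM in PULS_CORT, 4410, 11300 and 5980 CPM in CONS_VEH, and 5340, 4630 and 4830 CPM in CONS_CORT. PULS_CORT lay above PULS_VEH in every library, but the difference was smaller than its SE and was not called (0.23, SE 0.24, edgeR adjusted p = 0.65). Hpx stood at 6940 to 8780 CPM in the 9 libraries outside CONS_VEH and at 7150, 15600 and 9640 CPM in CONS_VEH. The CONS differences were -0.56 for Hp (adjusted p = 0.15) and -0.54 for Hpx (adjusted p = 0.10), and -0.07 and -0.18 without CONS_VEH replicate 2.

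Crp stood at 3290 to 3390 CPM in PULS_VEH and 3680 to 4460 CPM in PULS_CORT, again without overlap and not called (0.29, SE 0.15, edgeR adjusted p = 0.32). The share of all genes whose PULS groups part like those of Orm1, Hp and Crp was not counted. The CONS difference of Crp was -0.26 (edgeR adjusted p = 0.33), and -0.05 without CONS_VEH replicate 2. Apcs stood at 78.7 to 135 CPM, Lbp at 43.5 to 117 CPM and Cp at 2200 to 4740 CPM over the 12 libraries, and their PULS groups overlapped. Their CONS differences were 0.02, 0.00 and -0.54, and 0.23, 0.28 and -0.26 without CONS_VEH replicate 2. For Cp, Hp and Hpx the CONS difference was called without CONS_VEH replicate 1 (-0.73, -0.81 and -0.77, edgeR adjusted p under the limit in each).

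**Figure D4:**
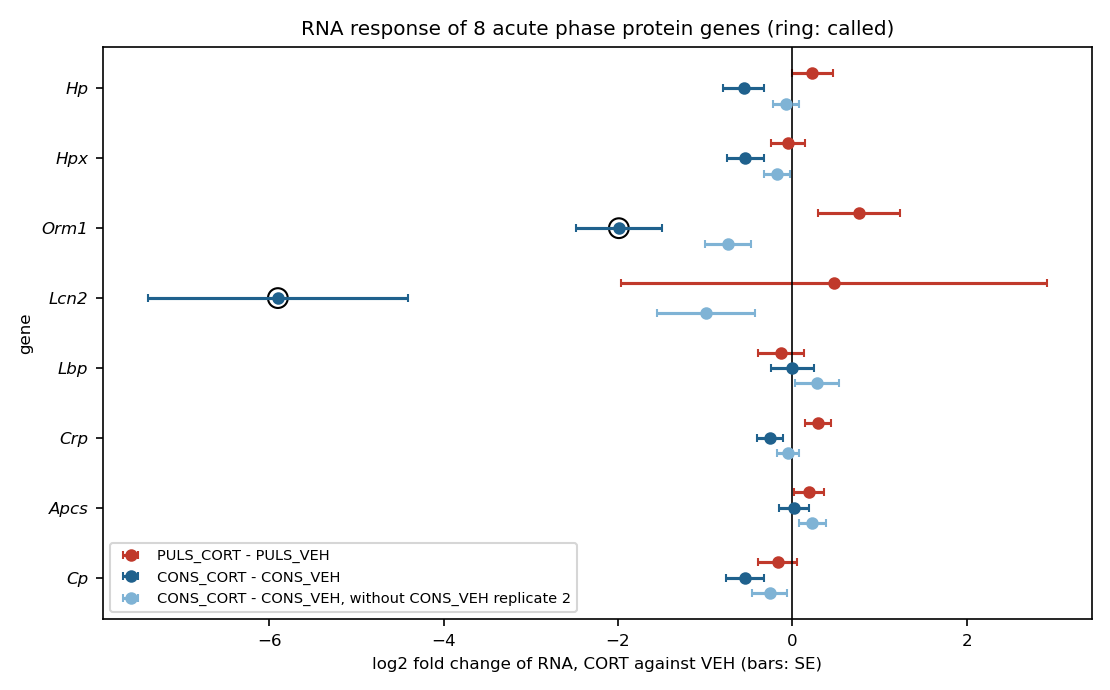
Log2 fold change of RNA (CORT against VEH of the same pattern) of the 8 tested members under PULS, under CONS, and under CONS without CONS_VEH replicate 2, with bars of 1 SE. The CONS values of Orm1 (-1.99) and Lcn2 (-5.90) move to -0.74 and -0.99 without that library.

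Over the members, edgeR called 0 of 8 under PULS, where 4.23% of all genes were called, with 0 at an unadjusted p under 0.05 and 0 called by DESeq2. Under CONS, 2 of 8 fell, where 9.2% of all genes were called, and 0 of 8 without CONS_VEH replicate 2, with 1 at an unadjusted p under 0.05. DESeq2 called 1 of 8, Orm1. The median log2 fold change was 0.21 under PULS and -0.54 under CONS, the latter -0.13 without that library, beside -0.01 over all genes in each case.

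The CONS response was then set against the PULS response. The test of this difference called 0 of 8 members in edgeR, where 0.0284% of all genes were called, with 3 at an unadjusted p under 0.05 (1 without CONS_VEH replicate 2). DESeq2 called 0 of 8, where 98 of all genes were higher and 117 lower. The lowest unadjusted p was that of Orm1 (-2.75, SE 0.68, edgeR unadjusted p = 0.00093, adjusted p = 0.1), which was not called. The Orm1 difference was -1.50 (SE 0.36, adjusted p = 0.13) without CONS_VEH replicate 2. Lcn2 had the greatest difference (-6.38, SE 3.27, adjusted p = 0.44), which was -1.47 without that library. The median was -0.52, and -0.22 without that library. Between CONS_CORT and PULS_CORT, where that library has no part, edgeR called 0 of 8, where 0.887% of all genes were called, with 0 at an unadjusted p under 0.05 and 0 called by DESeq2. Orm1 differed there by -0.53 (SE 0.47, adjusted p = 0.76) and Crp by -0.33 (SE 0.15, adjusted p = 0.46). Between CONS_VEH and PULS_VEH, edgeR called 0 of 8 members and 0 of 14092 genes (0%), with 4 members and 1286 genes at an unadjusted p under 0.05. Without CONS_VEH replicate 2 these were 1 member and 1072 genes. DESeq2 called 1 member, Orm1 (adjusted p = 0.049), where 15 of all genes rose and 7 fell. Orm1 was 2.22 higher in CONS_VEH (SE 0.49, edgeR adjusted p = 0.25), and 0.97 higher (SE 0.26, adjusted p = 0.38) without replicate 2. The other members at an unadjusted p under 0.05 were Lcn2 (5.44), Hp (0.74) and Hpx (0.45). Without replicate 2 their differences were 0.52, 0.26 and 0.08.

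Pol2 occupancy and RNA could be set side by side at 180 min for Orm1. Pol2 over Orm1 was 2.18 above VEH at NADIR_180 and 2.26 above it at CONS_180 on the log2 scale, neither called, while the RNA difference from vehicle was 0.76 under PULS and -1.99 under CONS, or -0.74 without CONS_VEH replicate 2. The ChIP vehicle was pulsatile and the RNA vehicle of CONS was constant, so that these values do not share a control.

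By the pattern over all 12 libraries (Pearson's r of log2 CPM), the genes most like Orm1 were Hp (0.919), Atg9a (0.906) and Tmem176a (0.903). Those most like Lcn2 were Hp (0.906), Orm1 (0.899) and Kng1 (0.891). All points share the libraries, and CONS_VEH replicate 2 is 1 of them. Over the 11 others the nearest were Nadk (0.944), Bcap31 (0.941) and Atg9a (0.927) for Orm1 and Slc46a1 (0.895), Cfap126 (0.888) and Capn3 (0.883) for Lcn2, and r with Hp was 0.655 for Orm1 and 0.174 for Lcn2.

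Other genes of the acute phase response were read as lists. Of 16 tested receptor and receptor-signalling genes, 1 rose and 1 fell under PULS, and 3 rose and 1 fell under CONS, with the same counts without CONS_VEH replicate 2. Beside this and the lists that follow, 4.23% of all genes were called under PULS and 9.2% under CONS. Il6r, the IL-6 receptor, stood at 88.0 ± 19.4 CPM in PULS_VEH (SD, n = 3), 164 ± 19.9 CPM in PULS_CORT, 84.2 ± 15.3 CPM in CONS_VEH and 277 ± 6.87 CPM in CONS_CORT. It rose under PULS (0.90, SE 0.16, edgeR adjusted p = 0.0039) and CONS (1.72, SE 0.16, adjusted p = 3.3e-06, also 1.72 without CONS_VEH replicate 2) and was higher in CONS_CORT than in PULS_CORT (0.76, SE 0.16, adjusted p = 0.032). Under CONS its signalling partner Il6st (0.90, and 0.99 without that library) and the IL-1 receptor Il1r1 (0.84, and 0.98) rose too. Tnfrsf1b, a TNF receptor, fell under PULS (-0.87) and CONS (-0.95, and -0.90 without that library).

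Of 11 tested feedback genes and glucocorticoid-induced brakes, 5 rose and 1 fell under PULS, and 6 rose and 1 fell under CONS (6 and 0 without CONS_VEH replicate 2). Per1, Tsc22d3, Fkbp5, Dusp1 and Nfkbia rose under both. Per1 is a clock gene, Fkbp5 encodes a co-chaperone of GR, Tsc22d3 the leucine zipper protein GILZ, Dusp1 a phosphatase of MAP kinases and Nfkbia the inhibitor of NF-kB. Their log2 fold changes under PULS and CONS were 2.74 and 3.12 for Per1, 2.50 and 3.00 for Tsc22d3, 2.09 and 2.95 for Fkbp5, 1.61 and 1.23 for Dusp1, and 0.86 and 1.28 for Nfkbia. Without CONS_VEH replicate 2 the CONS values were 3.30, 2.97, 2.95, 1.10 and 1.35 in the same order of genes. Zfp36, which destabilises cytokine mRNA, rose under CONS (2.52, and 2.61 without that library). The genes that fell were Pias3 under PULS (-1.05) and Sgk1 under CONS (-1.18, and -1.24 and not called without CONS_VEH replicate 2). Nfkbia, Pias3 and Sgk1 were named after their values were seen.

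Of 21 other positive acute phase genes, 1 rose under PULS, Agt (0.73, SE 0.11, edgeR adjusted p = 0.00087), which encodes angiotensinogen. Under CONS, the metallothionein gene Mt2A rose (2.39, SE 0.70, adjusted p = 0.034, and 3.27 without CONS_VEH replicate 2). Mug2 (-0.82, and -0.90 without that library) and the complement gene C9 (-0.83) fell, C9 no longer without it (-0.55). Mug2 encodes a murinoglobulin, which is known to fall in the acute phase response of the rat, though the list held it among the positive genes. Their medians were -0.09 under PULS and -0.23 under CONS, the latter -0.04 without that library. Of 14 negative acute phase genes, edgeR called 0 under PULS, with 3 at an unadjusted p under 0.05. Under CONS, 2 fell, Apoa4 (-0.78) and the male-specific cytochrome Cyp2c11 (-0.65), and both were called without CONS_VEH replicate 2 (-0.94 and -0.73). Of 11 tested transcription factor genes of the response, edgeR called 0 under PULS and 0 under CONS, with 2 and 4 at an unadjusted p under 0.05. These lists were not counted with DESeq2.

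Markers of the tissue were present. The 8 hepatocyte markers summed to 146000 to 192000 CPM, and 2 of them, Tat and Cps1, rose under both patterns. The 8 neutrophil markers summed to 1.29 to 2.68 CPM in CONS_CORT, 1.54 to 6.15 in CONS_VEH, 1.92 to 5.45 in PULS_CORT and 1.87 to 6.38 in PULS_VEH, with Mpo and Elane at 0 in every library. CONS_VEH replicate 2 held 6.15 CPM of them, 29 reads. The 7 Kupffer cell and macrophage markers summed to 311 to 347, 257 to 467, 287 to 440 and 277 to 393 CPM in the same order of groups, with Cd5l at 0. The 5 stellate cell markers summed to less in CONS_CORT (143 to 174 CPM) than in CONS_VEH (185 to 219 CPM) and to less in PULS_CORT (148 to 190 CPM) than in PULS_VEH (215 to 274 CPM). These markers did not move alike. Dcn alone was called, and it rose under CONS (1.16, SE 0.34, edgeR adjusted p = 0.036, and 1.37 without CONS_VEH replicate 2). Their median log2 fold change under CONS was -0.23, and 0.05 without that library. The 4 red cell markers summed to 206 to 424 CPM in CONS_CORT, 299 to 400 in CONS_VEH, 317 to 372 in PULS_CORT and 178 to 316 in PULS_VEH. The lists for endothelium (250 to 340 CPM), cholangiocytes (10.4 to 17.6 CPM, Krt19 at 0) and lymphocytes (36.0 to 72.8 CPM) overlapped between CORT and VEH. The part of these cells in the RNA differences was not tested.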

How the data were processed

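GR ChIP-Seq, pSer2 Pol2 ChIP-Seq and RNA-Seq libraries of rat liver were analysed from the tables that the authors deposited. Per the methods, ChIP reads were trimmed with Trimmomatic 0.36, aligned to rn6 with bowtie2 and freed of duplicates with SAMtools. The authors called GR peaks over input with HOMER 4.9.1 and merged them, and the positions in b are theirs. The deposited ChIP values are log2 tags per region and library after subtraction of input, with low values shrunk towards each region's mean (DESeq2 through HOMER). The authors describe the GR values as scaled to tags in binding regions in the methods and to total tags in the command kept with the values, so median-centred libraries were the alternative. The deposited RNA values are raw counts per gene from stranded total RNA (STAR and featureCounts 1.6.2 in the submitters' processing notes, Ensembl Rnor_6.0). The strand setting of the counting is not given in the sources used here. The authors' own fold changes and p-values, in separate tables and columns, were not used. The 10 input libraries entered only through the authors' subtraction.

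Here, ChIP values were compared with limma 3.58.1 (all 10 libraries of an assay in 1 fit, empirical Bayes with a variance trend) and counts with edgeR 4.0.16 in R 4.3.3 (TMM, quasi-likelihood test, genes above 10 reads in sum, 12 libraries in 1 fit), with p-values adjusted by Benjamini-Hochberg over all regions or genes tested. SEs of edgeR were taken as the log2 fold change over the root of F. A call needed an adjusted p below 0.05 and a change over 1.5-fold. DESeq2 1.42.0 was an alternative. Scripts were tested on simulated data. Pol2 was read over the widest region of a gene, except for Crp. Gene names came from the authors' pSer2 Pol2 table. Every member was named. Of the gene lists, up to 4 called genes with the greatest change per list and comparison were named, and for each member called in RNA the 3 genes most alike by Pearson's r of log2(CPM + 1). Members and lists were chosen with earlier results of these data known.

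The labels number the replicates but do not say that RNA libraries came from separate rats, so p-values measure the spread between these libraries, which may in part be technical. No pair of libraries held identical values. The alternatives tried were another tool, filter, scaling, window or set of libraries, a replicate block and each library left out. The precision is set by 2 libraries a group in ChIP and 3 in RNA-Seq.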

Additional observations from a re-analysis of the deposited data

Results flagged for a closer look

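GR signal at 12 of the 26 regions changed with time differently under PULS and CONS, by a test of that difference itself (limma, PEAK_140 minus NADIR_180 less CONS_140 minus CONS_180). Nearly all of the 26 were admitted with a PEAK_140 peak and without a NADIR_180 peak, so the outcome was in part set by that choice. On the log2 scale the difference was 6.60 at Apcs -25764 b, 6.05 at Apcs -9752 b and 4.86 at Apcs -24 b. It was 4.80 at Crp -460 b and 3.99 at Crp 823 b, the latter counted from the upstream start. For Hp it was 5.07 at -13189 b, 4.24 at -11909 b and 6.01 at -10999 b. For Lcn2 it was 3.37 at -35301 b and 5.06 at -6117 b, and for Orm1 it was 7.35 at -5096 b and 2.29 at 134 b. Of all GR regions, 44% were called in this comparison, and with centred libraries none of the 26 was. The difference then turned to -0.02 at Lcn2 -35301 b and -1.09 at Orm1 134 b.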

How the results depend on the processing

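Median centring of the libraries ended most GR calls. It left 2 regions called at PEAK_140, 0 at NADIR_180, 0 at CONS_140, 2 at CONS_180, 0 between PEAK_140 and NADIR_180 and 0 for the difference between the patterns in the change with time, and none passed between CONS_140 and CONS_180 on either scale. Centring shifts the change of every region in a comparison by the same amount. Called GR rises smaller than that shift therefore turned to the opposite sign. At PEAK_140 these became -0.26 (Apcs -25764 b), -0.24 (Cp -317 b), -1.32 (Crp -460 b), -1.53 (Crp 823 b), -1.30 (Hp -1768 b), -0.28 (Hp 2816 b), -2.16 (Hp 4520 b), -0.19 (Hpx -848 b), -0.07 (Lcn2 -31221 b), -0.49 (Lcn2 -6117 b) and -0.05 (Orm1 -5096 b). At CONS_140 they became -0.92 (Apcs -9752 b), -0.71 (Apcs -24 b), -0.29 (Cp -3286 b), -1.90 (Crp -460 b), -0.68 (Hp -10999 b) and -0.86 (Hp -1768 b). At CONS_180 they became -0.22 (Apcs -9752 b), -0.17 (Apcs -24 b), -0.43 (Cp -3286 b), -0.79 (Hp -13189 b), -0.83 (Hp -10999 b), -0.63 (Hp -1768 b), -1.90 (Lcn2 -6117 b) and -0.87 (Orm1 -5096 b), and an uncalled difference at Crp 9577 b became a called -3.90. Between PEAK_140 and NADIR_180 they became -0.46 (Cp -3286 b), -0.67 (Crp -14792 b), -0.70 (Hp 4520 b), -0.21 (Lcn2 -35301 b), -0.70 (Lcn2 -31221 b), -0.33 (Lcn2 -30069 b), -1.16 (Lcn2 -28769 b), -0.17 (Lcn2 -6117 b) and -0.36 (Orm1 134 b). For the change with time they became -0.02 (Lcn2 -35301 b) and -1.09 (Orm1 134 b). Which of the scales is nearer to GR binding was not tested.

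Tested only over regions above the median of mean values, which holds fewer of these regions, GR calls were 15 at PEAK_140, 11 at CONS_180 and 5 for the change with time by pattern. At NADIR_180 they were 0 with only the libraries compared and 1 in a 20 kb window. For pSer2 Pol2, only the libraries compared gave 0 calls at PEAK_140 and 0 at CONS_140, no variance trend gave 1 at PEAK_140, and centring gave 1 at CONS_180. Regions above the median gave 2 at CONS_140, 1 at CONS_180, 1 between PEAK_140 and NADIR_180 and 1 between CONS_140 and CONS_180. For RNA under CONS, DESeq2 and the fit of only the libraries compared each gave 1 call. With no filter on low counts 1 member was called for CONS against PULS and 2 between the vehicle groups, where DESeq2 called 1. The cause was not tested.

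With 1 library left out at a time, RNA calls ranged from 0 to 5 under CONS, 0 to 1 for CONS against PULS, 0 to 2 between the vehicle groups, and stayed at 0 under PULS and between the CORT groups. For pSer2 Pol2 they ranged from 0 to 3 at CONS_140, 0 to 1 between PEAK_140 and NADIR_180 and 0 to 1 for the change with time by pattern, and were 0 at PEAK_140, NADIR_180, CONS_180 and between CONS_140 and CONS_180. For GR they ranged from 16 to 21 at PEAK_140, 3 to 5 at NADIR_180, 8 to 17 at CONS_140, 10 to 15 at CONS_180, 10 to 16 between PEAK_140 and NADIR_180 and 3 to 13 for the change with time by pattern, and were 0 between CONS_140 and CONS_180. A ChIP library left alone was assumed to vary like the other groups.

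Replicate numbers were not shown to pair the samples. Deviations of same-numbered libraries correlated at -0.0713 to 0.118 in RNA and -0.0265 to 0.0718 in GR, and at 0.155 to 0.553 in pSer2 Pol2, where each group has only 2 numbers. With a replicate block, 2 RNA members were called under CONS and 0 in the other RNA and pSer2 Pol2 comparisons, and GR calls were 20 between PEAK_140 and NADIR_180 and 15 for the change with time by pattern. VEH libraries carry no number, so no paired analysis against them was made.

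The limits are those of small groups. With 2 libraries per ChIP group, every Pol2 call was lost without at least 1 library, and the VEH group joins 140 and 180 min. Lcn2 had at most 10 reads in 11 of 12 RNA libraries, so its RNA could not be compared at this depth outside CONS_VEH replicate 2, and A2m could not be tested.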
